A study of Homo sapiens with 6 samples.

Results

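The genes described here form the cellular defence against oxidants that is centred on the transcription factor NRF2, together with the glutathione and thioredoxin systems. A fixed list of 35 genes was matched to the array's probe sets, and only probe sets whose annotation names exactly 1 gene symbol were used. By this rule 33 of the 35 genes were measured, on 85 probe sets, out of 18132 genes on 44988 such probe sets in all. PRDX5 and SOD2 were not analysed here, since no probe set named either of them alone. Each gene is given by its brightest probe set, chosen by its mean log2 signal across the 6 arrays, with its other probe sets beside it. The arrays compared 3 samples of cells given AAPK, a compound known here only by its code and titled as a dual inhibitor of the kinases Aurora A and PLK-1, with 3 samples given DMSO, the vehicle. All 6 came from the cell line labelled HCT-116, described in the labels as high in Aurora-A and PLK-1, and grown in RPMI medium with serum. The treatment entry, identical for all samples, gives 10 µM for 48 h, and the dose is read here as that of AAPK. Nothing states whether replicates were separate cultures, so the p-values reflect only the variation among these 6 samples and some or all of it may be technical. The comparison asks which transcripts differ after the compound.

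NRF2, encoded by NFE2L2, binds antioxidant response elements as a heterodimer with a small MAF protein and switches on detoxifying and antioxidant genes. In unstressed cells KEAP1 holds NRF2 for ubiquitination by a CUL3 ligase, so that NRF2 is controlled to a large extent at the level of the protein, which arrays do not measure. Glutathione is the abundant thiol that peroxidases and transferases use, while thioredoxin and its reductase supply electrons to peroxiredoxins, and both systems draw on NADPH.

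The arrays were close to each other. Pearson correlations over probe sets ran from 0.9976 to 0.9983 within a group and from 0.9942 to 0.9954 between groups. Markers that define colorectal epithelium were only partly bright. Of 14 such markers, 7 lay under the 25th percentile of gene signals. They were EPCAM (3.39 log2 units in AAPK and 3.45 in DMSO), CDH1 (5.11 in both groups), KRT19, CDX2, VIL1, LGALS4 and CLDN3. KRT8 (12.01 in AAPK and 11.84 in DMSO) and KRT18 (12.52 in AAPK and 12.44 in DMSO) were bright, as was the mesenchymal filament gene VIM, looked up after these values were seen (12.54 in AAPK and 12.51 in DMSO). Others of the 14 were not dim, among them CLDN4 and ELF3 (9.29 in AAPK and 9.12 in DMSO), both above the median gene signal of 7.10. The list is thus split, with the epithelial adhesion genes EPCAM and CDH1 at the low end, and the samples are called here the cells labelled HCT-116. None of the 12 measured blood, fibroblast and endothelial markers passed the test described next; 1 of them had an unadjusted p under 0.05. The difference between 3′ and 5′ control probe sets did not separate the groups for ACTB or GAPDH (two-sided exact permutation p = 1 and 0.6, where 0.1 is the smallest possible). Control probe sets for the 5′ and middle parts of the large ribosomal RNA were higher in AAPK by 0.56 and 0.51 log2 units, and that for the 3′ part of the small one differed by -0.41; the other 3 ran from -0.13 to -0.06. Their part in the results below was not tested.

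The defence genes moved in both directions, with more members higher than lower in AAPK. Each gene was tested with limma, with Benjamini-Hochberg adjustment over all 18132 genes and an adjusted p of 0.05 as the threshold. An SE given with a log2 difference is limma's moderated standard error, which draws on the variance of all genes. It can therefore exceed what a gene's own SD would give. Of the 33 measured members, 10 were higher in AAPK (30.3%), where 8.11% of all genes were. The 10 were GLRX, UGDH, GCLM, NQO1, MGST1, SOD1, CBR1, TXNRD1, GPX1 and PRDX1. Another 3 were lower (9.09%, against 7.26% of all genes), namely TXNIP, NFE2L2 and GCLC, and that share is near the background. The remaining 20 did not pass. The shares of all genes are not matched to the members for signal. Of all genes, 4533 lay under the 25th percentile of gene signals, against 3 of the members. A test of only the brighter genes, cut at the median signal, called 1727 genes higher and 1310 lower, out of fewer genes. Of the members left, also fewer than 33, it called 12 higher and 3 lower. A larger share of bright genes was thus called. How far this narrows the gap between members and all genes was not tested. Exact shares after this cut are not given, so no excess of members is read from these counts. The median log2 difference, AAPK minus DMSO, was 0.03 over the members and -0.02 over all genes. The arrays of the groups did not overlap for 20 members, where 31.9% of all genes showed no overlap. Of the 20, 13 had AAPK above (14.9% of all genes) and 7 had AAPK below (17.1% of all genes). When every probe set was tested, 28 of the members' 85 were higher and 9 lower, against 7.13% and 5.82% of all 44988. In these bulk samples, fewer cells of a type and less RNA per cell cannot be told apart. Of the 13 called members, 8 passed in the same direction under each of the 15 alternative processings: GLRX, UGDH, GCLM, NQO1, MGST1 and SOD1 higher, and TXNIP and NFE2L2 lower.

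**Figure D1:**
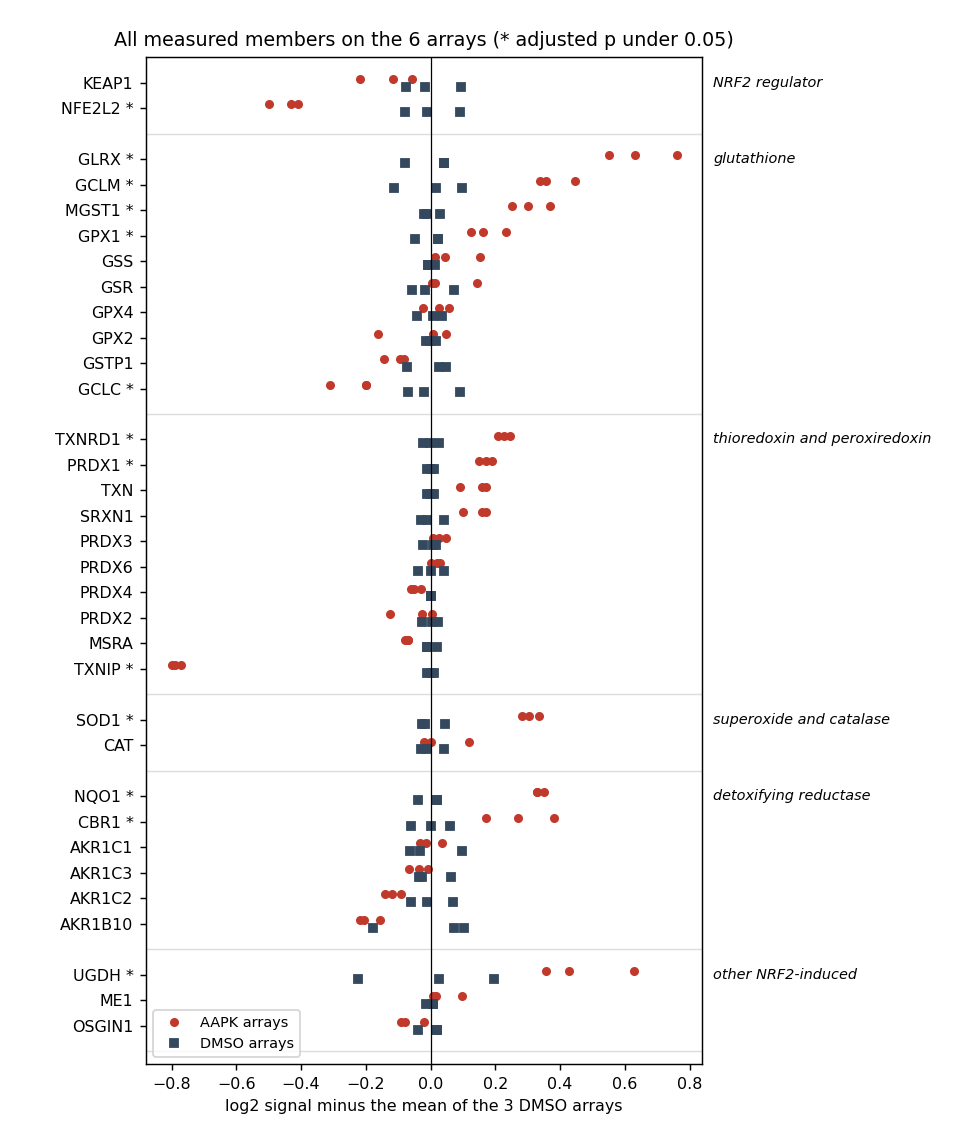
Log2 signal of each of the 33 measured members on every array, minus the mean of the 3 DMSO arrays of that gene; circles are AAPK arrays, squares DMSO arrays, and an asterisk marks an adjusted p under 0.05. GLRX lies farthest to the right and TXNIP farthest to the left, and most peroxiredoxins lie near 0.

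The transcript of the pathway's own regulator was lower. NFE2L2 had 9.48, 9.55 and 9.57 log2 units on the AAPK arrays, against 9.97, 9.90 and 10.07 on the DMSO arrays. Every AAPK array was thus below every DMSO array, by at least 0.33 log2 units. NFE2L2 was 1.36-fold lower (log2 difference -0.44 ± 0.05 SE over 3 arrays in each group; limma adjusted p = 4.01e-04), and its other probe set was at -0.35 and also passed. Ranked by the log2 difference, NFE2L2 was gene 221 from the bottom of 18132. KEAP1, the sensor that binds NRF2, had 8.48, 8.42 and 8.32 on AAPK arrays and 8.63, 8.46 and 8.52 on DMSO arrays. The groups overlapped and KEAP1 did not pass (-0.13, limma adjusted p = 0.193).

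Sequence just before the gene start was searched for the core of the antioxidant response element, TGACNNNGC, on both strands. RefSeq promoter tables of build GRCh38.p14 held 41 windows for 28 of the 35 members. The core occurred in the 250 bases before the start in 8 of the 41 windows (19.5%), against 10.9% of all 35116 windows. Those 8 windows belonged to 7 members. Of the 8 members that were higher in AAPK and had a window, 3 held it (GCLM, TXNRD1 and CBR1), as did 4 of 15 that did not pass (ME1, GSTP1, GPX2 and KEAP1) and 0 of the 3 that were lower. The core can include the AP-1 site TGACTCA, as in GSTP1 and ME1. A match is a description of letters and shows no binding. Only these 250 bases were searched, so a window without the core does not show that the gene lacks one elsewhere. The 3 promoters with the core whose genes were higher are shown first, then those of GPX2 and GSTP1, whose genes did not pass, so that like elements can be compared. Each is the 250 bases before the start, 5′ to 3′ on the gene's strand, with the match in capitals. They lie at chr1:93909431-93909680 on the minus strand for GCLM, chr12:104215529-104215778 on the plus strand for the first TXNRD1 window, chr21:36069774-36070023 on the plus strand for CBR1, chr14:64942746-64942995 on the minus strand for GPX2 and chr11:67583562-67583811 on the plus strand for GSTP1.
GCLM: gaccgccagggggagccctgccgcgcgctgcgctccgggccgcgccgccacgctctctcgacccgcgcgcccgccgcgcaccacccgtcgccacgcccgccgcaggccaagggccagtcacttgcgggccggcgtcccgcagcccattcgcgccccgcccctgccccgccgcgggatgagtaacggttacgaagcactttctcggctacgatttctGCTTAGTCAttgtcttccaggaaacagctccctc
TXNRD1: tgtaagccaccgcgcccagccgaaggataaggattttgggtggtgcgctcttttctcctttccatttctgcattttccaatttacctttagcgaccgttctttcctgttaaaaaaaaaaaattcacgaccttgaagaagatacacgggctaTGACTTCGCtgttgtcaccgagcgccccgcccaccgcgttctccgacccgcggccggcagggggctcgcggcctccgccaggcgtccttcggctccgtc
CBR1: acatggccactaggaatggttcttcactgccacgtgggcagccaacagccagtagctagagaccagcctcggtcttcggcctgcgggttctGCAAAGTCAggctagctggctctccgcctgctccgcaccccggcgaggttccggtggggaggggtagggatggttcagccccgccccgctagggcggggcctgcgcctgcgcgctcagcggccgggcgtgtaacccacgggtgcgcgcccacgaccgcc
GPX2: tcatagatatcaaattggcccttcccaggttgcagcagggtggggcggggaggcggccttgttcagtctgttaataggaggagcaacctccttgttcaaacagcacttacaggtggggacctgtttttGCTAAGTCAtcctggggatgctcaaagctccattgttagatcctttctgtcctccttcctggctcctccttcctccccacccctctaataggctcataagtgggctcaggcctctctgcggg
GSTP1: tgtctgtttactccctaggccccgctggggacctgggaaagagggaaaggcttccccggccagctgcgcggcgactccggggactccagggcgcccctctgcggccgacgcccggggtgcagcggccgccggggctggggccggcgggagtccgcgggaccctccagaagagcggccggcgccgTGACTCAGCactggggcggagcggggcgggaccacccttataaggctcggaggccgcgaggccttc

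Read on the strand shown, the GCLM match lay 34 to 26 bases before the start, that of TXNRD1 99 to 91, that of CBR1 159 to 151, that of GPX2 122 to 114 and that of GSTP1 66 to 58. The GCLM, CBR1 and GPX2 matches are on the opposite strand and so read as the reverse complement. A second TXNRD1 window held a match as well.

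Among the glutathione genes, the 2 subunits of glutamate-cysteine ligase, the first enzyme of glutathione synthesis, moved apart on their brightest probe sets only. GCLM, the modifier subunit, had 8.24, 8.22 and 8.33 log2 units on AAPK arrays, against 7.90, 7.77 and 7.98 on DMSO arrays. It rose 1.30-fold (0.38 ± 0.06 SE, limma adjusted p = 0.00178), but its other probe set did not pass (0.12), and averaging both gave 0.25. GCLC, the catalytic subunit, had 7.53, 7.64 and 7.64 on AAPK arrays and 7.82, 7.77 and 7.93 on DMSO arrays. GCLC was therefore lower on all 3 AAPK arrays than on any DMSO array, while GCLM was higher on all 3. GCLC fell by 0.24 (± 0.06 SE, limma adjusted p = 0.0155), but its 3 other probe sets ran from -0.23 to 0.11 and none of them passed. The GCLC call was lost when its probe sets were averaged (-0.08), when the most variable probe set was used (-0.23), without AAPK replicate 1 (-0.20) and without DMSO replicate 3 (-0.19). The log2 ratio of GCLM to GCLC within an array was 0.72, 0.59 and 0.69 in AAPK, against 0.08, 0.00 and 0.05 in DMSO. This ratio was higher in AAPK by 0.62, with no overlap (two-sided exact permutation p = 0.1, the smallest that 3 arrays against 3 allow). That outcome was fixed once GCLM lay above and GCLC below on every AAPK array, so it adds no support. Signals of different probe sets are not on a common scale, so only the difference between groups can be read from such a ratio. GSS, which completes glutathione, did not pass (0.07, limma adjusted p = 0.415), nor did GSR, which reduces oxidised glutathione (0.06, limma adjusted p = 0.599).

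GLRX, glutaredoxin, which removes glutathione from protein thiols, showed the largest rise of the members. It had 8.35, 8.27 and 8.48 log2 units on AAPK arrays, against 7.76, 7.64 and 7.76 on DMSO arrays. The lowest AAPK array was 0.51 log2 units above the highest DMSO array. GLRX rose 1.56-fold (0.64 ± 0.06 SE, limma adjusted p = 8.96e-05), gene 29 from the top of 18132 by log2 difference. Its 2 other probe sets also passed, at 0.67 and 0.92. MGST1, a microsomal glutathione transferase, had 10.78, 10.85 and 10.73 on AAPK arrays and 10.51, 10.46 and 10.47 on DMSO arrays. It rose 1.24-fold (0.31 ± 0.05 SE, limma adjusted p = 0.00162), and both its other probe sets passed, at 0.24 and 0.35. GPX1, a cytosolic selenoprotein peroxidase, had 11.12, 11.19 and 11.08 on AAPK arrays and 10.98, 10.98 and 10.91 on DMSO arrays. The groups stood apart by 0.11 only. GPX1 rose 1.13-fold (0.18 ± 0.05 SE, limma adjusted p = 0.0299), a call lost with quantile normalisation (0.12, limma adjusted p = 0.126). It was also lost in 5 of 6 fits with an array left out, without AAPK replicate 1 (0.18) or 2 (0.15) and without DMSO replicate 1 (0.19), 2 (0.19) or 3 (0.15). GPX4, which reduces lipid peroxides, did not pass (0.02, limma adjusted p = 0.833). GPX2, the intestinal peroxidase (-0.04), and GSTP1, a soluble transferase (-0.10), did not pass either. GSTP1 had 6.39 ± 0.03 log2 units in AAPK and 6.49 ± 0.07 in DMSO (SD, n = 3 each).

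**Figure D2:**
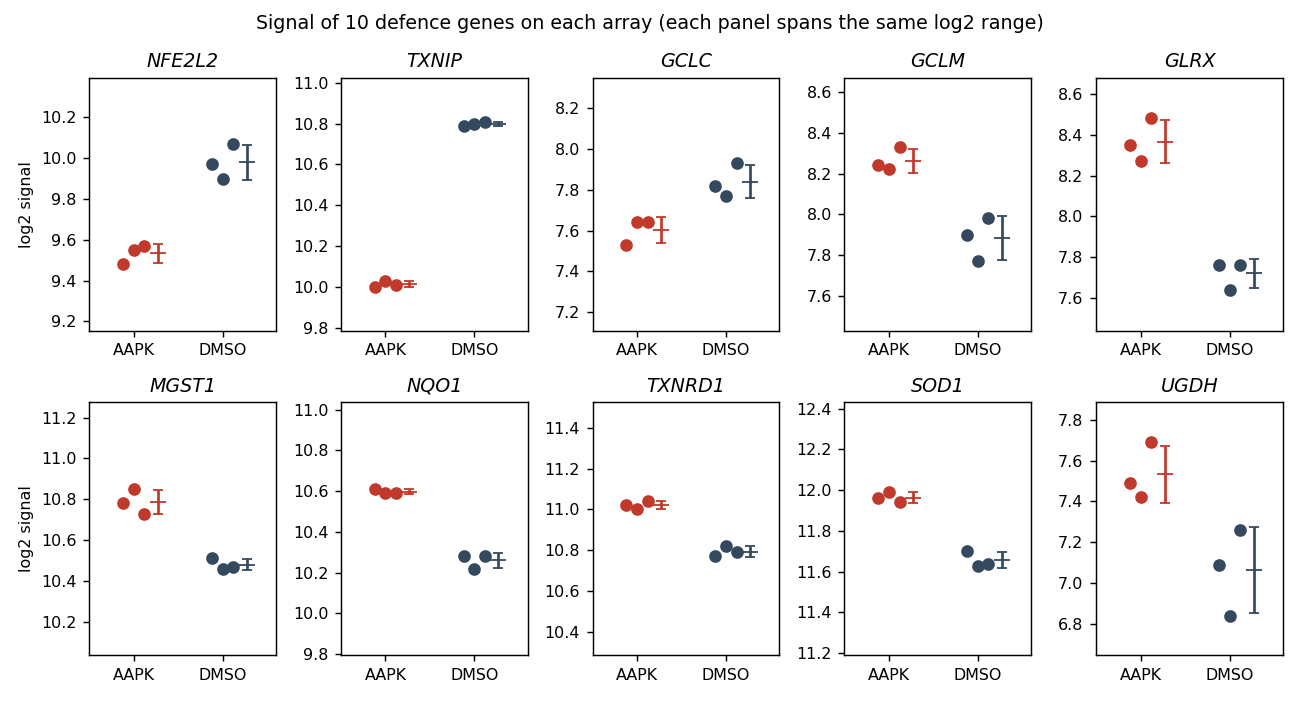
Log2 signal of 10 members on each array, AAPK left and DMSO right, with the mean and SD of 3 arrays beside the points; all panels span the same log2 range. NFE2L2, TXNIP and GCLC are lower in AAPK and the other 7 higher, and UGDH has the widest spread within a group.

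In the thioredoxin system the inhibitor was lower and the reductase higher. TXNIP, which binds thioredoxin and restrains glucose uptake, had 10.00, 10.03 and 10.01 log2 units on AAPK arrays, against 10.79, 10.80 and 10.81 on DMSO arrays. The replicates were tight, with an SD of 0.02 in AAPK and 0.01 in DMSO, while the groups lay 0.76 apart. TXNIP was 1.73-fold lower (-0.79 ± 0.04 SE, limma adjusted p = 1.83e-06), gene 45 from the bottom of 18132. Its 4 other probe sets, from -0.84 to -0.77, all passed. TXNRD1, the cytosolic thioredoxin reductase and a selenoprotein, had 11.02, 11.00 and 11.04 on AAPK arrays and 10.77, 10.82 and 10.79 on DMSO arrays. It rose 1.17-fold (0.23 ± 0.04 SE, limma adjusted p = 0.00512). Both remaining probe sets were above 0, at 0.18 and 0.21, but did not pass, and the call was lost when the most variable probe set was used (0.21, limma adjusted p = 0.0693).

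TXN, thioredoxin itself, depended on the probe set. On the brightest one it had 11.83, 11.76 and 11.84 log2 units on AAPK arrays, against 11.66, 11.67 and 11.68 on DMSO arrays. The groups did not overlap, yet TXN lay just outside the threshold (0.14 ± 0.04 SE, limma adjusted p = 0.0511). Its 4 other probe sets ran from 0.35 to 0.38 and all 4 passed as higher. TXN passed under 7 of the 15 alternatives, reaching 0.32 when its probe sets were averaged and 0.38 when the most variable was used. SRXN1, sulfiredoxin, which repairs over-oxidised peroxiredoxins, had 8.16, 8.15 and 8.09 on AAPK arrays and 7.98, 7.96 and 8.03 on DMSO arrays. SRXN1 also missed the threshold (0.14, limma adjusted p = 0.0641) and passed under 6 of 15 alternatives.

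Of the 5 measured peroxiredoxins, thiol peroxidases most of which thioredoxin recharges, PRDX1 alone passed on its brightest probe set. It had 12.56, 12.52 and 12.54 log2 units on AAPK arrays, against 12.38, 12.36 and 12.37 on DMSO arrays. PRDX1 rose 1.12-fold (0.17 ± 0.04 SE, limma adjusted p = 0.0204). Its log2 difference held between 0.16 and 0.19 over the alternatives. The call was lost when each gene was given by its most variable probe set (0.17), without AAPK replicate 1 (0.16) and without DMSO replicate 1 (0.18), 2 (0.16) or 3 (0.17). Cytosolic PRDX2 (-0.05), mitochondrial PRDX3 (0.03), endoplasmic reticulum PRDX4 (-0.05) and PRDX6 (0.01), which uses glutathione, did not pass. The log2 ratio of PRDX1 to PRDX2 within an array was 1.17, 1.10 and 1.25 in AAPK, against 0.96, 0.92 and 0.98 in DMSO. The ratio was 0.22 higher in AAPK without overlap (two-sided exact permutation p = 0.1, the smallest possible). It mostly restates the PRDX1 difference, since PRDX2 barely moved, and so adds no separate support. All 5 PRDX2 probe sets were below 0, whereas 1 of the 3 other PRDX6 probe sets passed at 0.27, so the PRDX6 value depends on the probe set. MSRA, which reduces oxidised methionine with thioredoxin, did not pass (-0.08, limma adjusted p = 0.291).

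**Figure D3:**
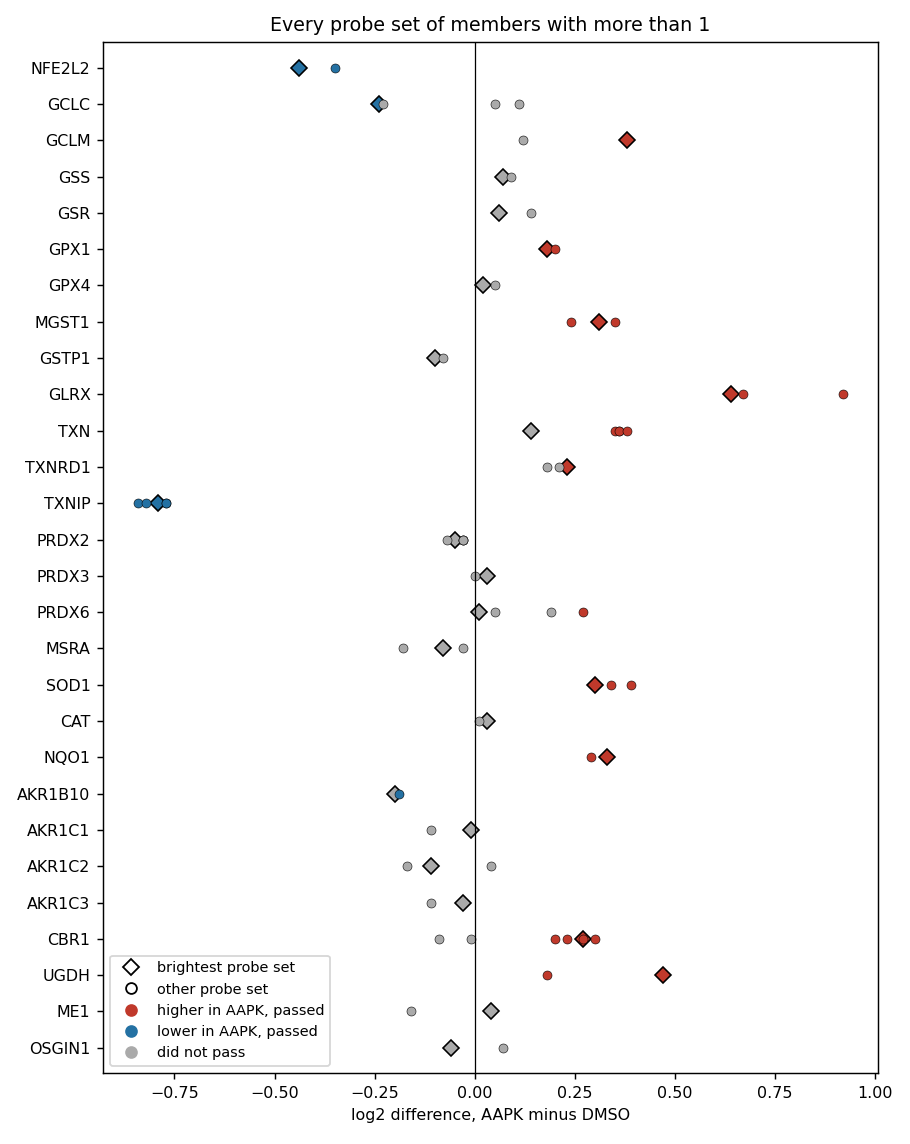
Log2 difference, AAPK minus DMSO, of every probe set of the members that have more than 1; diamonds are the brightest probe sets, and colour shows whether a probe set passed when all probe sets were tested together. The 5 TXNIP probe sets cluster near -0.8, the TXN diamond lies left of its 4 circles, and GCLC and CBR1 spread across 0.

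Superoxide dismutase 1, the cytosolic copper-zinc enzyme that turns superoxide into hydrogen peroxide, was higher. SOD1 had 11.96, 11.99 and 11.94 log2 units on AAPK arrays, against 11.70, 11.63 and 11.64 on DMSO arrays. The groups were 0.24 apart. SOD1 rose 1.23-fold (0.30 ± 0.04 SE, limma adjusted p = 0.00117), with 0.34 and 0.39 on its 2 other probe sets, both of which passed. CAT, the peroxisomal catalase that breaks down hydrogen peroxide, overlapped between the groups (8.88 ± 0.08 in AAPK and 8.85 ± 0.04 in DMSO, SD, n = 3 each) and did not pass (limma adjusted p = 0.763).

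Of the 6 detoxifying reductases, 2 rose and the 4 aldo-keto reductases did not pass. NQO1, the quinone reductase often read as an NRF2 target, had 10.61, 10.59 and 10.59 log2 units on AAPK arrays, against 10.28, 10.22 and 10.28 on DMSO arrays. It rose 1.26-fold (0.33 ± 0.04 SE, limma adjusted p = 5.34e-04), and its other probe set passed at 0.29. CBR1, a carbonyl reductase, had 9.12, 9.22 and 9.33 on AAPK arrays and 8.89, 8.95 and 9.01 on DMSO arrays. CBR1 rose 1.21-fold (0.27 ± 0.06 SE, limma adjusted p = 0.0119). Of its 6 other probe sets 4 passed with the same sign, and the 6 ran from -0.09 to 0.30. Averaging all its probe sets gave 0.17. The CBR1 call was lost without DMSO replicate 1 (0.24, limma adjusted p = 0.0542). AKR1B10, AKR1C1, AKR1C2 and AKR1C3, which reduce aldehydes and ketones, steroids among them, had log2 differences of -0.20, -0.01, -0.11 and -0.03. AKR1B10 had 5.62, 5.57 and 5.56 on AAPK arrays and 5.60, 5.88 and 5.85 on DMSO arrays, so DMSO replicate 1 lay among the AAPK arrays. Its other probe set passed as lower (-0.19, limma adjusted p = 0.0276 over all probe sets). The gene passed as lower without that array (-0.28) and when its probe sets were averaged (-0.19). AKR1B10, AKR1C1 and AKR1C3 lay under the 25th percentile of gene signals in this table, and the AKR1C genes are close paralogs whose signals a probe set may share.

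UGDH, which makes the UDP-glucuronate used in glucuronidation, had 7.49, 7.42 and 7.69 log2 units on AAPK arrays, against 7.09, 6.84 and 7.26 on DMSO arrays. Its replicates were spread more widely than those of the other members, with an SD of 0.14 in AAPK and 0.21 in DMSO. The groups still did not overlap. UGDH rose 1.38-fold (0.47 ± 0.10 SE, limma adjusted p = 0.0106), with 0.18 on its other probe set, which passed, and 0.32 for the mean of both. ME1, malic enzyme and a source of NADPH, did not pass (0.04, limma adjusted p = 0.634), and its other probe set had the opposite sign (-0.16). OSGIN1, an oxidative stress growth inhibitor, did not pass on either probe set (-0.06 and 0.07).

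Set side by side, the 3 largest roles had low medians with a few members away from 0. Over all genes 8.11% were higher and 7.26% lower. Glutathione genes had 4 higher and 1 lower of 10, a median log2 difference of 0.06 and a range of -0.24 to 0.64. Thioredoxin and peroxiredoxin genes had 2 higher and 1 lower of 10, a median of 0.02 and a range of -0.79 to 0.23. Detoxifying reductases had 2 higher and 0 lower of 6, with a median of -0.02. The counts of lower genes, 1 of 10, 1 of 10 and 0 of 6, are near the share of all genes. After removal of genes below the 25th percentile, AKR1B10, AKR1C1 and AKR1C3 among them, the reductase median was 0.27, which is the CBR1 value. Removal of genes below the median left only the called genes NQO1 and CBR1, with a median of 0.30. These values thus rest on few genes. The reductase median was -0.11 when the most variable probe sets were used. The differences between roles were not tested.

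**Figure D4:**
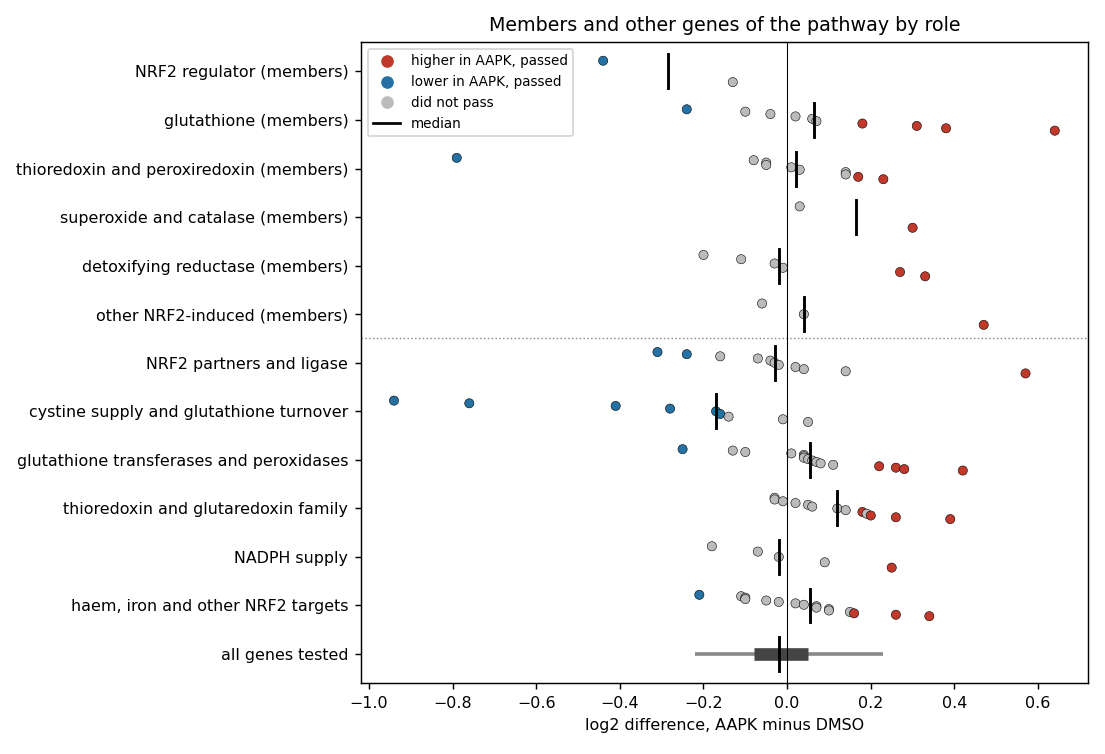
Log2 difference, AAPK minus DMSO, of each measured gene by role, with members above the dotted line and the other listed pathway genes below it; black ticks are medians, and the bottom row gives the 5th to 95th percentile (thin) and the quartiles (thick) of all genes. Cystine supply and glutathione turnover has 6 genes lower and 0 higher, and the glutathione members run from -0.24 to 0.64.

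Of 83 further genes of these pathways 70 were measured, of which 13 were higher and 10 lower, with a median of 0.04. Over all genes 8.11% were higher and 7.26% lower, and the counts below are set beside these shares. The shares include dim genes and are not matched for signal, so a modest excess over them cannot be told from the background of brighter genes. In cystine supply and glutathione turnover 6 of 9 were lower (66.7%, against 7.26% of all genes) and 0 higher, with a median of -0.17; this role was not tested against the others. CTH, which makes cysteine from cystathionine, had 8.49 log2 units on all 3 AAPK arrays and 9.50, 9.34 and 9.45 on the DMSO arrays. CTH was 1.92-fold lower (-0.94 ± 0.05 SE, limma adjusted p = 2.15e-06). CHAC1, which degrades glutathione, was 1.69-fold lower (-0.76, limma adjusted p = 0.00107), with -1.02 on its other probe set. SLC7A11, the cystine carrier, differed by -0.16 on its brightest probe set (limma adjusted p = 0.0352), and its 2 other probe sets were at -1.41 and -1.20 and passed too. All 3 are also known as genes of the amino acid stress response.

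Of 11 partners of NRF2 and its ligase, 1 was higher (9.09%, near the 8.11% of all genes) and 2 lower (18.2%, against 7.26%). MAFF (-0.03), MAFG (-0.07) and SQSTM1, the autophagy receptor that binds KEAP1 (0.02), did not pass. CUL3, the scaffold of the ligase that ubiquitinates NRF2, had 9.06, 9.00 and 9.04 log2 units on AAPK arrays, against 8.54, 8.34 and 8.52 on DMSO arrays. CUL3 rose 1.48-fold (0.57 ± 0.06 SE, limma adjusted p = 1.66e-04), but 1 of its 3 other probe sets passed and they ran from -0.09 to 0.47. NFE2L1, the related factor NRF1, fell by 0.24, and all 5 of its other probe sets were below 0. PALB2, which can bind KEAP1, fell by 0.31.

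Among glutathione transferases and peroxidases 4 of 16 were higher (25%, against 8.11% of all genes) and 1 lower (6.25%, near the 7.26% of all genes). MGST2 and MGST3, microsomal relatives of MGST1, rose by 0.42 and 0.28, and GPX8, a peroxidase of the endoplasmic reticulum, fell by 0.25. Of 13 further thioredoxin and glutaredoxin genes 4 were higher (30.8%) and 0 lower. Among them were GLRX5, a mitochondrial glutaredoxin of iron-sulfur cluster assembly, at 0.39 and TXNRD2, the mitochondrial thioredoxin reductase, at 0.26. Of the 4 other TXNRD2 probe sets 3 passed as higher, and the 4 ran from -0.11 to 0.28. Of 5 NADPH-supplying genes TALDO1, transaldolase, rose by 0.25, with -0.08 on its other probe set. Among 16 haem, iron and other NRF2 targets 3 were higher (18.8%) and 1 lower (6.25%). PIR, pirin, rose by 0.34 and BLVRA, biliverdin reductase A, by 0.26, while FECH, ferrochelatase, fell by 0.21, with -0.08 to -0.00 on its other probe sets, none of which passed. HMOX1, haem oxygenase 1 and a classical NRF2 target, had 7.02, 7.03 and 6.88 log2 units on AAPK arrays, against 7.02, 6.95 and 6.76 on DMSO arrays. The groups overlapped and HMOX1 did not pass (0.07, limma adjusted p = 0.619).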

How the data were processed

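Total RNA extracted with Trizol was labelled with biotin by in vitro transcription, per the labels' protocols, and hybridised to Affymetrix arrays, 3 per group. The authors' deposited values were read as log2 signal, because they run from 2.83 to 14.25; the sources used here do not give the log base, background correction, normalisation or probe summary. Array quartiles were nearly equal, so changes are relative to the bulk of genes. Of 49395 probe sets, 102 were controls, 44988 named 1 symbol, 1832 several and 2473 none; the last 2 kinds were left out. All 44961 single-symbol probe sets with an identifier in RefSeq's GRCh38.p14 gene table kept their symbol.

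AAPK minus DMSO was tested per gene by a two-sided fit of group alone (limma 3.58.1, functions lmFit and eBayes, under R 4.3.3), with Benjamini-Hochberg adjustment over 18132 genes and a threshold of 0.05. The fit was tested on simulated data. With 3 arrays per group, their number limits the precision. Alternatives changed the normalisation, signal filter, probe set choice, variance prior, array weights and replicate block, and left out each array. All 35 members are named; of 83 other pathway genes, up to 2 with the largest rise and fall per role, and 6 always. Members, lists and tests were chosen with earlier results of these data known.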

Additional observations from a re-analysis of the deposited data

How the results depend on the processing

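Under the alternatives that kept all 6 arrays the members higher in AAPK numbered 8 to 13, or 7 to 10 with an array left out, and those lower 2 to 3, or 2 to 4 with an array left out; over all genes 1116 to 1780 were higher and 983 to 1701 lower with all arrays kept, and 1004 to 1308 were higher and 891 to 1142 lower with an array left out. With the replicate number as a block, 8 members were higher and 3 lower, and 1116 and 983 of all genes; GPX1 and PRDX1 lost their calls. Same-numbered arrays shared only a number: their deviations correlated at 0.03, -0.20 and -0.03, and no array correlated best with its own number. The glutathione median was 0.12 after removal of genes below the median signal and 0.05 to 0.08 with an array left out. The thioredoxin and peroxiredoxin median was -0.02 with quantile normalisation, 0.07 with the mean of probe sets or on the most variable ones, and 0.01 to 0.03 with an array left out. The reductase median was 0.27 and 0.30 with the signal filters, which leave fewer genes, -0.11 on the most variable probe sets and -0.04 to 0.02 with an array left out. Some members that did not pass changed sign: with quantile normalisation GPX4 (-0.05), PRDX3 (-0.02), PRDX6 (-0.01), CAT (-0.01) and AKR1C1 (0.01); with median centring AKR1C1 (0.01); with array weights AKR1C1 (0.03); with the mean of probe sets ME1 (-0.06) and OSGIN1 (0.00); on the most variable probe sets ME1 (-0.16), OSGIN1 (0.07) and PRDX3 (-0.00). With an array left out, GPX2 ran from -0.08 to 0.02, PRDX6 from -0.00 to 0.03, CAT from -0.01 to 0.06 and AKR1C1 from -0.04 to 0.04. The cause was not tested. AKR1B10, AKR1C1 and AKR1C3 were dim, and no background level was measured for them.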

Other observations

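Of the 14 epithelial and colorectal markers, 2 passed limma's threshold, both as higher in AAPK, where 8.11% of all genes were higher. KRT8, a keratin of simple epithelia, was at 0.17 on the log2 scale (limma adjusted p = 0.0402), and ELF3, an epithelial transcription factor, at 0.17 (limma adjusted p = 0.0483). The other 12 markers did not pass. Of the 7 other KRT8 probe sets 1 passed as higher, and neither of the 2 others of ELF3 passed (-0.03 and 0.17).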
